A study of Mus musculus with 10 samples.

Results

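Ferroptosis is a form of cell death driven by iron-dependent peroxidation of polyunsaturated phospholipids, and 10 genes that feed or restrain that peroxidation outside the glutathione peroxidase GPX4 were examined in pancreatic tumour epithelium. The genes were taken by symbol from a named list, and all 10 were present among the 15624 genes of the count table and among the 13006 that had enough counts to be tested. Acsl4, Lpcat3, Por, Sat1 and Vdac2 make up the 5 genes that promote lipid peroxidation or respond to ferroptosis inducers. Aifm2, Gch1, Dhodh and Acsl3 make up the 4 suppressors that act without GPX4, and Ptgs2 is a transcript commonly read as a marker of ferroptosis.

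The libraries came from established pancreatic ductal adenocarcinoma of KPFSR mice, whose tumour epithelium was cut from frozen sections by laser capture microdissection. Animals given corn oil, the vehicle, supplied 4 libraries and animals given tamoxifen supplied 6. From knowledge of the model rather than from the labels, KPFSR mice carry Flp-activated tumour-driving alleles in the pancreas, floxed Slc7a11 alleles and a tamoxifen-activated Cre recombinase expressed from the Rosa26 locus in all tissues, so that tamoxifen deletes Slc7a11 in tumour and host cells alike. Corn oil animals are taken to carry the same alleles without induction, which the labels do not state. Any effect of tamoxifen itself cannot be told apart from that of the deletion. The same holds for any other difference between the groups, such as that in Trp53 given below. The labels give no age, dose, time or sex and do not tie libraries to animals. The spread that p-values rest on is therefore between libraries and may be technical, and p-values are too small if libraries of a group share an animal. Because the captured material is bulk RNA, fewer cells of a type and less RNA per cell cannot be told apart.

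As background, SLC7A11 imports cystine for glutathione synthesis, and glutathione is the substrate with which GPX4 reduces phospholipid hydroperoxides. ACSL4 and LPCAT3 place arachidonic and adrenic acid in membrane phospholipids, POR passes electrons from NADPH that can start their oxidation, and the suppressors regenerate lipid-soluble antioxidants or supply monounsaturated fatty acids that resist oxidation. Pancreatic tumours are known to depend on cystine import to hold this process back.

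Depth was 16473902 to 36132316 counts for the corn oil group and 6899347 to 19462115 for the tamoxifen group, the shallowest library being tamoxifen replicate 6. Tamoxifen replicates 1 to 3 stood apart as a trio, with correlations across genes (Pearson's r, log2 CPM) of 0.921 to 0.963 among them and at most 0.878 for any other pair. No pair agreed within sampling noise, since the mean chi-square per gene was at least 24.3, and each library was kept. By Xist and Ddx3y, 2 of 4 corn oil libraries and 1 of 6 tamoxifen libraries were female. Epithelial keratins and Epcam were high in every library, with the summed level of 9 epithelial markers at 14322 to 30258 normalised CPM with corn oil and 14079 to 25158 with tamoxifen (CPM, read counts divided by the TMM-scaled library size). Of these markers 8 were lower with tamoxifen, 0 at an unadjusted p under 0.05 in edgeR, with a median log2 fold change of -0.35. The summed level of 9 fibroblast markers was 121 to 417 normalised CPM with corn oil and 124 to 989 with tamoxifen. Of 8 tested fibroblast markers 7 were higher with tamoxifen, with a median log2 fold change of 1.21. At an unadjusted p under 0.05 in edgeR 2 were higher, against 4.43% of all tested genes. The summed level of 8 macrophage markers was 949 to 1417 normalised CPM with corn oil and 824 to 2194 with tamoxifen. Cd14, higher in every tamoxifen library (699 to 936 normalised CPM against 249 to 584), made up much of the macrophage sum, and the other 7 had log2 fold changes below 0. Without Cd14, a choice made after its values were seen, the sum was 566 to 833 with corn oil, 362, 150 and 125 in tamoxifen replicates 1 to 3 and 1397, 419 and 583 in replicates 4 to 6. The part of macrophage RNA in levels that set replicates 1 to 3 apart (Acsl3, Dhodh and Aifm2) was not tested. Tamoxifen replicates 4 and 6 had the highest fibroblast sums, 989 and 633 normalised CPM. The floxed gene, Slc7a11, stood at 23.2 to 40.1 normalised CPM with corn oil and 5.90 to 19.3 with tamoxifen, with no overlap. Trp53, the tumour suppressor gene, also differed between the groups, at 6.22 to 8.91 normalised CPM with corn oil and 19.98 to 225 with tamoxifen, without overlap (log2 fold change 4.30, SE 0.61, edgeR adjusted p 0.0362). Its part in the levels of the 10 genes was not tested.

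Promoters of 8 of the 10 genes were found in RefSeq on GRCm38.p6, each running from 250 bases before the start of transcription to 50 bases after it, and Vdac2 and Dhodh had no entry. The 4 shown belong to the acyl-CoA synthetase pair of opposite role, Acsl4 (chrX:142390486-142390785, minus strand) and Acsl3 (chr1:78657575-78657874, plus strand), to the marker Ptgs2 (chr1:150099781-150100080, plus strand) and to Aifm2 (chr10:61720399-61720698, plus strand), and they are read 5′ to 3′ with motif matches in capitals.
Acsl4: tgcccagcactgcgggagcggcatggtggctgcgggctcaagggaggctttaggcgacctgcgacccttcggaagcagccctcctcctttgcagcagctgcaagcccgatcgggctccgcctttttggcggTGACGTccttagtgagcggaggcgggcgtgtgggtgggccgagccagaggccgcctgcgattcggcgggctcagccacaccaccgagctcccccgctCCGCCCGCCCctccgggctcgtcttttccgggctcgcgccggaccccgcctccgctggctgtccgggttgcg
Acsl3: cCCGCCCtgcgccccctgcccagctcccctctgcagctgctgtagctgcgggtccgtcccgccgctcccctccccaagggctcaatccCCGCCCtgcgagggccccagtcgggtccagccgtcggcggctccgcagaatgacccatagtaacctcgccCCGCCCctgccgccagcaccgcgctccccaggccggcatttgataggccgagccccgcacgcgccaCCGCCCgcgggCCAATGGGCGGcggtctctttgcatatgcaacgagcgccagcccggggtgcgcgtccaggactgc
Ptgs2: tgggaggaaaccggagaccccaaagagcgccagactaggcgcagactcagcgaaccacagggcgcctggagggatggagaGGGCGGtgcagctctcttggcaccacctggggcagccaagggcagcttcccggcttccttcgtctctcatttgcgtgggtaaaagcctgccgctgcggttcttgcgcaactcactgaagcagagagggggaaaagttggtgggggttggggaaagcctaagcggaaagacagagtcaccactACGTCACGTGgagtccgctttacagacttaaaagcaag
Aifm2: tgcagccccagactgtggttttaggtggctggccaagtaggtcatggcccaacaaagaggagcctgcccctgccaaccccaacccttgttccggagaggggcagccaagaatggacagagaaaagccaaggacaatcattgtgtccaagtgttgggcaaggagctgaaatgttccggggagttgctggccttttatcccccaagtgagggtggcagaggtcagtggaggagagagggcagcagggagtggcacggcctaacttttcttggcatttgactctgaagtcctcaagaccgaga
Motifs were searched on both strands as the cAMP response element half-site TGACGT, the E-box CACGTG, the antioxidant response element core TGACNNNGC, the TATA box TATAAA, the CCAAT box CCAAT and the GC box GGGCGG. Among 32851 promoters of this length these were held by 7.51%, 7.15%, 12.4%, 13.6%, 37.4% and 35.7%, in that order. The Ptgs2 window held a cAMP response element half-site overlapping an E-box, both after the annotated start, and 1 GC box. Acsl4 held 1 cAMP response element half-site and 2 overlapping GC boxes, and Acsl3 held 5 GC boxes and 1 CCAAT box. None of the 6 motifs was found in the Aifm2 window, which had 4 CpG dinucleotides against a median of 7 over all promoters, whereas Acsl4 and Acsl3 each had 33 and Ptgs2 had 16. The Aifm2 window is set at the RefSeq start, which lies within the GENCODE gene. The antioxidant response element core was found in none of the 8 windows, which says only that these letters are not in them. The data measured transcripts only, and no binding or methylation was read at these sequences.

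To order the genes by level, counts were divided by the length of all annotated exons. With corn oil, Sat1 was the most abundant at 252 ± 128 normalised CPM per kb (SD, n = 4), followed by Por at 85.0 ± 47.9, Lpcat3 at 65.0 ± 13.2, Vdac2 at 61.0 ± 7.10 and Gch1 at 40.6 ± 10.4 (SD, n = 4 each). A lower tier held Acsl3 at 16.3 ± 8.36 normalised CPM per kb, Acsl4 at 7.60 ± 3.32, Aifm2 at 4.65 ± 1.43, Dhodh at 4.61 ± 1.93 and Ptgs2 at 1.01 ± 1.20 (SD, n = 4 each). The ranges of the 4 corn oil libraries overlapped between every pair of neighbours in this order except Gch1 and Acsl3, whose levels per kb were at least 30.4 and at most 28.5. By level the roles were mixed, with the suppressor Gch1 above Acsl4. With tamoxifen the mean of Acsl3 was 7.58 normalised CPM per kb, below Acsl4 at 8.80, Aifm2 at 8.78 and Dhodh at 7.64, whereas with corn oil it was above all 3.

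With tamoxifen, Vdac2 and Aifm2 were higher, Acsl3 was lower, and none of these differences passed the test over all genes. In edgeR's quasi-likelihood test at an FDR of 0.05, 0 of the 10 genes were called, against 0.0384% of tested genes (0.00769% higher and 0.0308% lower). At an unadjusted p under 0.05 there were 2, Vdac2 and Aifm2, both higher, where 9.7% of all tested genes were under that value and 4.43% were under it and higher. DESeq2 also called 0, with the same number unadjusted (2), and limma voom with sample quality weights called 1, Acsl3. Over all genes DESeq2 called 1.89% (0.948% higher and 0.94% lower) and limma voom 9.62% (2.68% higher and 6.94% lower), so that 1 of 10 is near the share of all genes that limma voom called. Groups did not overlap for 1 of the 10, Vdac2, against 3.23% of tested genes (1.28% higher and 1.95% lower). Of the 5 promoting genes 4 had log2 fold changes above 0, with a median of 0.26, and of the 4 suppressors 2 did, with a median of 0.17. Over all 13006 tested genes the median was -0.01 and 49.3% were above 0 and 50.7% below. All 10 passed the filter on low counts.

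**Figure D1:**
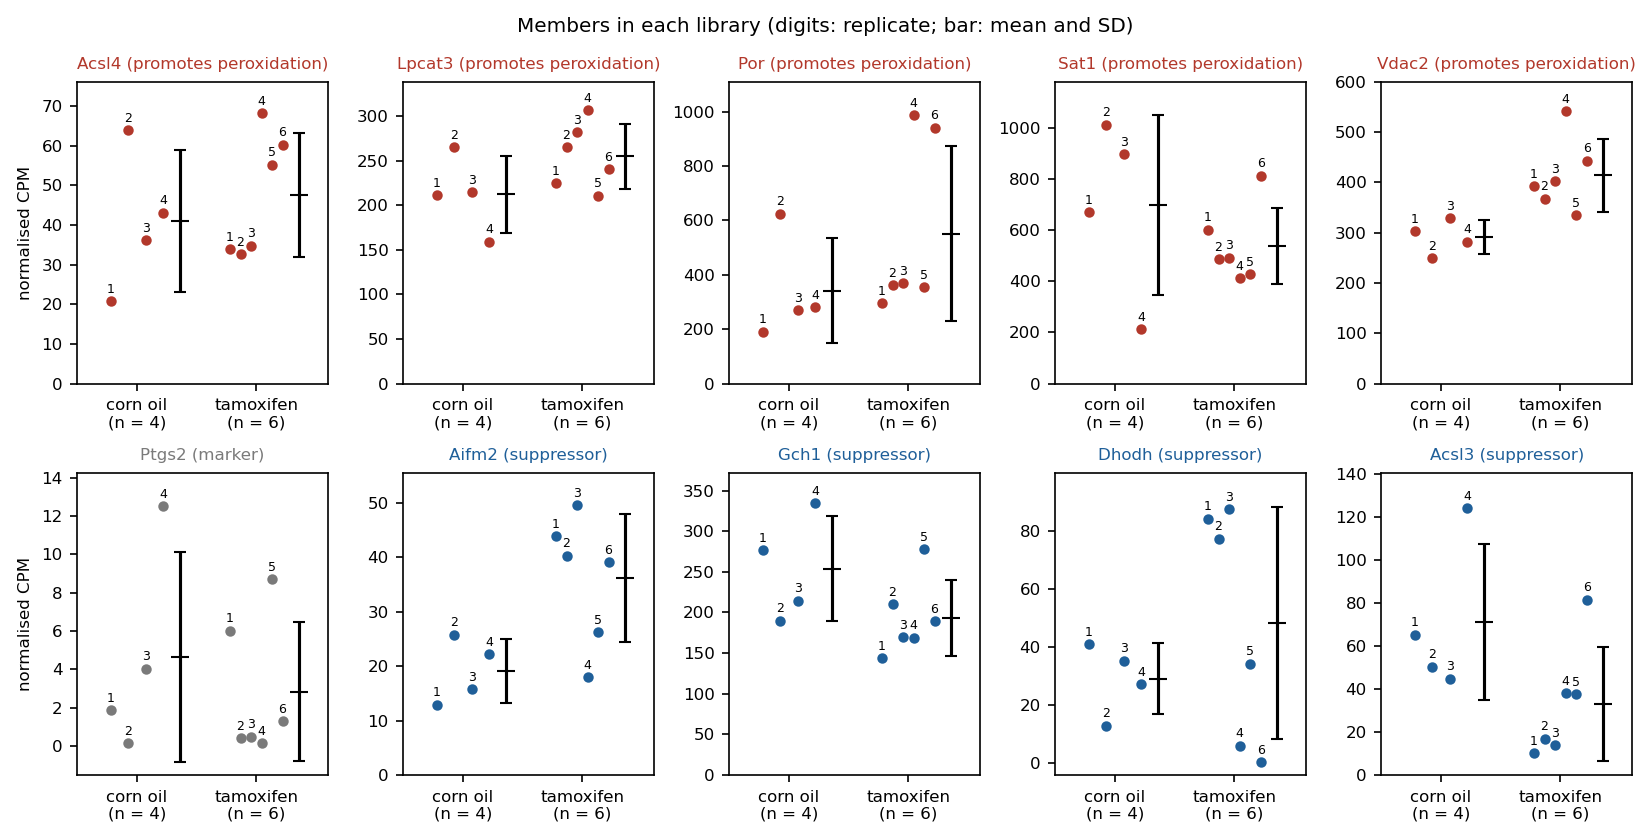
Normalised CPM of each gene in the 4 corn oil and 6 tamoxifen libraries, each panel on its own linear axis, with digits giving the replicate and bars the mean and SD. Vdac2 is the gene whose groups do not overlap, and tamoxifen replicates 1 to 3 lie close together for Acsl3, Dhodh and Acsl4.

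**Figure D2:**
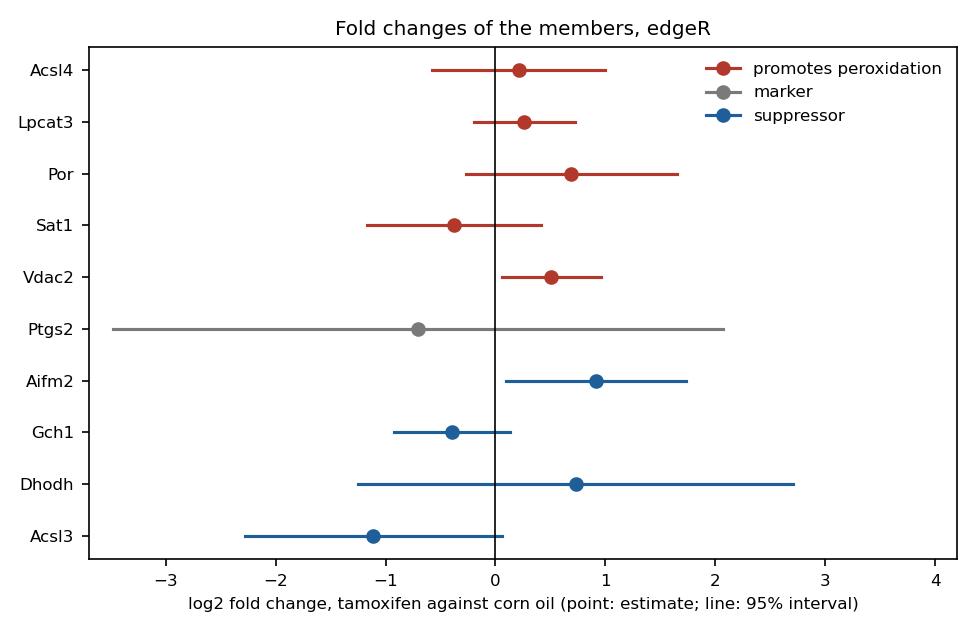
Log2 fold change of each gene, tamoxifen against corn oil, with its 95% interval from edgeR, coloured by role. The intervals of Vdac2 (0.06 to 0.96) and Aifm2 (0.10 to 1.74) lie above 0, and the other 8 include 0.

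Among the genes that promote peroxidation, Acsl4 encodes the acyl-CoA synthetase that activates arachidonic acid and is needed for ferroptosis in many cells. It stood at 20.8, 64.1, 36.2 and 43.2 normalised CPM in corn oil replicates 1 to 4 and at 34.0, 32.7, 34.8, 68.2, 55.3 and 60.3 in tamoxifen replicates 1 to 6. The tamoxifen libraries split, with replicates 1 to 3 in the middle of the corn oil range and replicates 4 to 6 near or just above its top. The log2 fold change was 0.21 (SE 0.36, 95% interval -0.57 to 0.996, edgeR adjusted p 0.918). It was 0.58 without tamoxifen replicates 1 to 3, -0.07 without replicates 4 and 6 and -0.01 without corn oil replicate 1, so that its direction was not settled. Acsl4 lies on chromosome X at 142317993 to 142390535 of GRCm38, and with sex as a covariate its log2 fold change was 0.19.

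LPCAT3 joins arachidonoyl-CoA to lysophospholipids in the step after ACSL4. Lpcat3 varied little, from 159 to 265 normalised CPM with corn oil and from 211 to 306 (median 253) with tamoxifen. Only 2.15% of tested genes had as small an SD of log2 CPM over the 10 libraries. Its log2 fold change was 0.26 (SE 0.21, 95% interval -0.20 to 0.72, edgeR adjusted p 0.767). That interval left out a change of 2-fold in either direction, whereas the interval of Acsl4 ran to just under it on the higher side. Lpcat3 lies on chromosome 6 at 124663027 to 124704418, and 334 exon bases are shared with Emg1 on the opposite strand.

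POR, the cytochrome P450 reductase of the endoplasmic reticulum, hands NADPH electrons to acceptors that can initiate lipid peroxidation. Por stood at 191, 624, 270 and 282 normalised CPM in corn oil replicates 1 to 4 and at 296, 362, 368, 986, 355 and 941 in tamoxifen replicates 1 to 6. Tamoxifen replicates 4 and 6 were above every other library, and the other 4 tamoxifen libraries lay within the corn oil range. Group means were 342 ± 193 (corn oil, SD, n = 4) and 551 ± 321 (tamoxifen, SD, n = 6), and the log2 fold change was 0.69 (SE 0.44, 95% interval -0.27 to 1.65, edgeR adjusted p 0.687). Without tamoxifen replicates 4 and 6 it was 0.01, and without corn oil replicate 2 it was 1.15 with an edgeR adjusted p of 0.520. The same 2 libraries had the highest summed fibroblast markers (989 and 633 normalised CPM, 9 of 9 markers in the table, with Fap at 0 in 4 libraries), although corn oil replicate 2, the next highest for Por, had the lowest fibroblast sum of 121. The part of fibroblast RNA in the level of Por was not tested. Por lies on chromosome 5 at 135670033 to 135735326.

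SAT1 acetylates spermidine and spermine for export or oxidation, is a known p53 target and sensitises cells to ferroptosis through lipoxygenase. Sat1 was at 672, 1015, 899 and 214 normalised CPM in corn oil replicates 1 to 4 and at 413 to 814 (median 490) in tamoxifen libraries. The tamoxifen libraries lay inside the corn oil range, with corn oil replicate 4 below all of them. Its log2 fold change was -0.37 (SE 0.37, 95% interval -1.17 to 0.42, edgeR adjusted p 0.821), or -0.68 leaving out corn oil replicate 4 and -0.14 leaving out replicate 2 of that group. Sat1 lies on chromosome X at 155213132 to 155216449, and with sex as a covariate its log2 fold change was -0.39.

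VDAC2, a voltage-dependent anion channel of the outer mitochondrial membrane, is bound by the ferroptosis inducer erastin. Vdac2 was at 303, 249, 329 and 282 normalised CPM in corn oil replicates 1 to 4 and at 392, 367, 402, 541, 335 and 443 in tamoxifen replicates 1 to 6. Every tamoxifen library was above every corn oil library, although the gap between tamoxifen replicate 5 (335) and corn oil replicate 3 (329) was narrow. Group means were 291 ± 33.9 (corn oil, SD, n = 4) and 413 ± 72.2 (tamoxifen, SD, n = 6), and the log2 fold change was 0.51 (SE 0.21, 95% interval 0.06 to 0.96), with an edgeR p of 0.0302 unadjusted and 0.448 adjusted. Over the 19 alternatives the log2 fold change stayed above 0, from 0.36 to 0.60, and the adjusted p ran from 0.158 to 0.980. The sister channels did not share this separation. Vdac1 had a log2 fold change of 0.26 ± 0.20 (SE; by edgeR, adjusted p 0.745) and Vdac3 one of -0.16 (SE 0.21, edgeR adjusted p 0.880), and the difference between the channels was not tested. Vdac2 lies on chromosome 14 at 21825238 to 21845879, and 25 exon bases are shared with Comtd1 on the opposite strand.

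Ptgs2 encodes the inducible cyclooxygenase, whose transcript often climbs in cells dying by ferroptosis and also in inflamed tissue. It was at the bottom of the count range, with 5 to 301 reads per corn oil library and 2 to 175 per tamoxifen library. Its level was 1.85, 0.152, 4.03 and 12.5 normalised CPM in corn oil replicates 1 to 4 and 6.01, 0.404, 0.474, 0.126, 8.70 and 1.31 in tamoxifen replicates 1 to 6. Libraries of both groups ran from near 0 to above 8, a 99.6-fold spread over the 10 libraries, and the 2 reads of tamoxifen replicate 4 give an exact Poisson 95% interval of 0.0152 to 0.454 normalised CPM, for counting error only. The log2 fold change was -0.71 (SE 1.28, 95% interval -3.48 to 2.07, edgeR adjusted p 0.926), and it was 0.50 without corn oil replicate 4. A higher Ptgs2 level with tamoxifen was therefore not detectable in these libraries, and the interval still allows a change of 4-fold in either direction. Immediate early genes, a sign of tissue handling, were highest in tamoxifen replicates 6 and 5 and corn oil replicate 4 (sums of 2990, 2885 and 2710 normalised CPM over 11 of 11 genes, with Fosb at 0 in 1 library), of which 2 also had the highest Ptgs2. Of the 11 genes 8 were higher with tamoxifen, with a median log2 fold change of 0.19. At an unadjusted p under 0.05 in edgeR 2 were higher, against 4.43% of all tested genes. The part of immediate early genes, or of handling, in the level of Ptgs2 was not tested. Ptgs2 lies on chromosome 1 at 150100031 to 150108227.

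Of the suppressors, AIFM2 (also called FSP1) is a membrane-bound reductase that uses NADPH to regenerate the radical-trapping form of coenzyme Q and works in parallel to GPX4. Aifm2 was at 12.9, 25.8, 15.7 and 22.2 normalised CPM in corn oil replicates 1 to 4 and at 43.9, 40.3, 49.6, 18.0, 26.3 and 39.1 in tamoxifen replicates 1 to 6. Of the tamoxifen libraries 5 were above all corn oil libraries and replicate 4 lay inside their range, while replicate 5 (26.3) barely cleared corn oil replicate 2 (25.8). Group means were 19.2 ± 5.89 (corn oil, SD, n = 4) and 36.2 ± 11.8 (tamoxifen, SD, n = 6), a fold of 1.89. The log2 fold change was 0.92 (SE 0.38, 95% interval 0.10 to 1.74), with an edgeR p of 0.0311 unadjusted and 0.451 adjusted. In all 19 alternatives it stayed above 0, from 0.54 without tamoxifen replicates 1 to 3 to 1.22 in limma voom, with adjusted p of 0.0507 to 0.980. Aifm2 lies on chromosome 10 at 61715263 to 61739260, and 233 exon bases are shared with H2afy2 on the opposite strand, which reached at most 3.13 normalised CPM in any library.

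GCH1 makes the first committed step of tetrahydrobiopterin synthesis, a radical-trapping antioxidant. Gch1 was at 277, 190, 215 and 335 normalised CPM in corn oil replicates 1 to 4 and at 144 to 278 (median 179) in tamoxifen libraries. The groups overlapped broadly, with tamoxifen replicate 5 at the level of corn oil replicate 1. Its log2 fold change was -0.39 (SE 0.24, 95% interval -0.92 to 0.13, edgeR adjusted p 0.668). All 19 alternatives gave a value below 0, from -0.51 to -0.23. Gch1 lies on chromosome 14 at 47153895 to 47189413.

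DHODH, a pyrimidine-synthesis enzyme of the inner mitochondrial membrane, reduces coenzyme Q there and can hold back lipid peroxidation in mitochondria. Dhodh was at 41.1, 12.9, 35.3 and 27.3 normalised CPM in corn oil replicates 1 to 4 and at 84.2, 77.4, 87.5, 6.09, 34.3 and 0.327 in tamoxifen replicates 1 to 6. Tamoxifen replicates 1 to 3 were above every corn oil library, replicates 4 and 6 were below every one, and replicate 5 lay among them. Tamoxifen replicate 6 held 2 reads of Dhodh, an exact Poisson 95% interval of 0.0396 to 1.18 normalised CPM for counting error only, whose upper bound lies below the interval of every other library, the next being 4.94 to 7.44 in tamoxifen replicate 4. The nearest genes in the table on either side, Hp and Pkd1l3, chosen after these values were seen, were at 66.7 and 6.54 normalised CPM in that library, the highest of the 10 libraries for each. Some genes of the pathway lists, also picked after seeing the values, were at or near 0 in tamoxifen replicate 6. Pex10 and Pdss1 were at 0 and Coq10a at 0.163 normalised CPM, against at least 3.08, 4.92 and 13.4 in every other library. Others, such as Gpx4 at 1063, were highest in it. The part of such low levels of this library in the spread of Dhodh was not tested. With tamoxifen libraries on both sides of the corn oil range, the log2 fold change was 0.73 (SE 0.92, 95% interval -1.25 to 2.71, edgeR adjusted p 0.877). Without replicates 1 to 3 it was -1.10, and without replicates 4 and 6 it was 1.28 (edgeR adjusted p 0.143). With sex as a covariate it was 0.06. The SD of its log2 CPM exceeded that of 90.8% of tested genes. Dhodh lies on chromosome 8 at 109591343 to 109608673.

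ACSL3 activates monounsaturated fatty acids such as oleic acid, whose incorporation displaces oxidisable chains from phospholipids. Acsl3 was at 65.3, 50.5, 44.9 and 124 normalised CPM in corn oil replicates 1 to 4 and at 10.1, 16.9, 14.02, 38.0, 37.5 and 81.7 in tamoxifen replicates 1 to 6. In 5 of 6 tamoxifen libraries it was below every corn oil library, and replicate 6 lay above 3 of the 4. Group means were 71.2 ± 36.4 (corn oil, SD, n = 4) and 33.0 ± 26.7 (tamoxifen, SD, n = 6), and the log2 fold change was -1.11 (SE 0.54, 95% interval -2.28 to 0.06), with an edgeR p of 0.0609 unadjusted and 0.546 adjusted. Limma voom gave -1.95 (adjusted p 0.00540). Its quality weights were 1.69, 5.49 and 3.87 for tamoxifen replicates 1 to 3 and 0.308 and 0.333 for replicates 4 and 6. Without tamoxifen replicates 1 to 3 the edgeR value was -0.44, without corn oil replicate 4 it was -0.70, and without tamoxifen replicate 6 it was -1.61 (edgeR adjusted p 0.188). Acsl3 lies on chromosome 1 at 78657825 to 78707743, and 244 exon bases are shared with Utp14b on the same strand, which ranged from 0.174 to 42.2 normalised CPM.

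Acsl4 and Acsl3 activate fatty acids of opposite effect on peroxidation, and their ratio within a library does not depend on scaling. In reads per kb of exon the ratio of Acsl4 to Acsl3 was 0.257, 1.02, 0.650 and 0.280 in corn oil replicates 1 to 4. It was 2.71, 1.56, 2.002, 1.45, 1.19 and 0.595 in tamoxifen replicates 1 to 6. In 5 of 6 tamoxifen libraries the ratio was above that of every corn oil library, and replicate 6 lay within the corn oil range. The ratio was chosen after the levels were seen and was not tested.

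**Figure D3:**
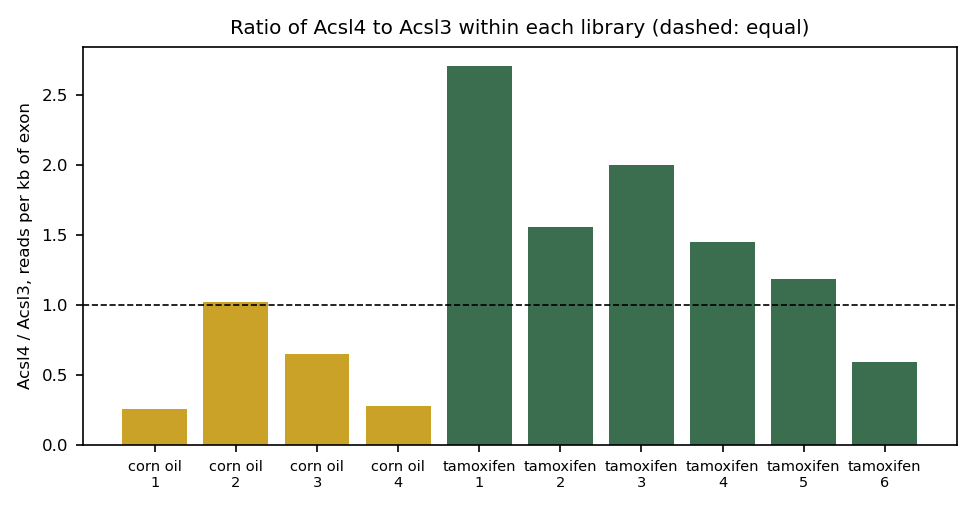
Ratio of Acsl4 to Acsl3 in reads per kb of exon, 1 bar per library, with the dashed line at equal levels. The 4 corn oil libraries lie between 0.257 and 1.02, and tamoxifen replicate 6 (0.595) is the tamoxifen library within that range.

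**Figure D4:**
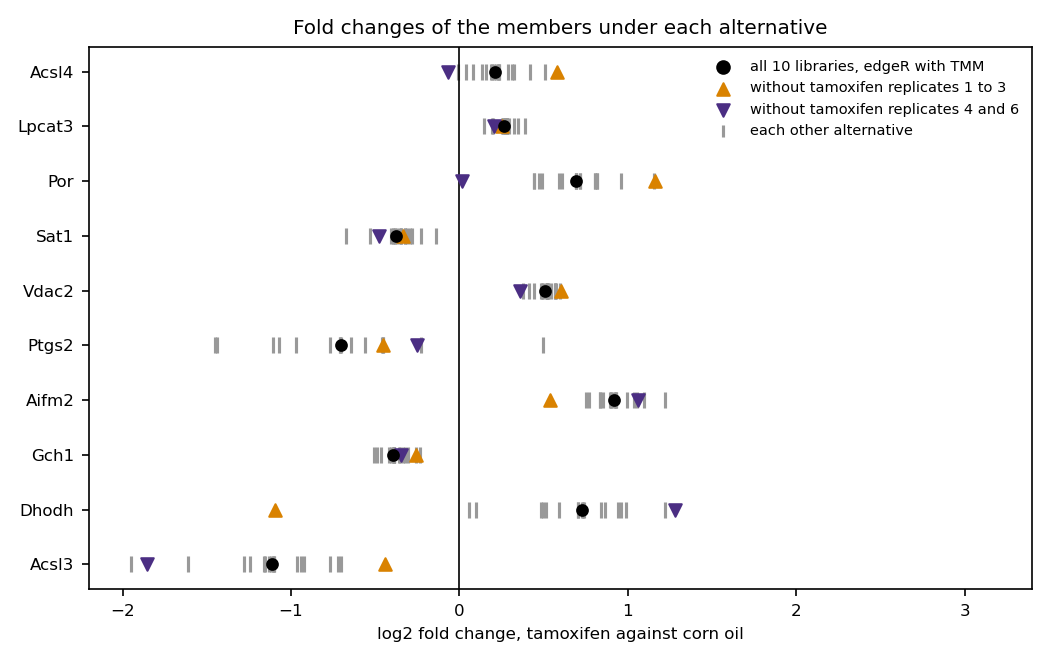
Log2 fold change of each gene with all 10 libraries (black) and under each alternative, with the values without tamoxifen replicates 1 to 3 (triangle up) and without replicates 4 and 6 (triangle down) marked. Dhodh goes from 1.28 to -1.10 between those 2 settings, while Vdac2 stays between 0.36 and 0.60 over all alternatives.

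The surrounding pathways were read from 16 lists holding 110 genes of the table, of which 102 were tested. Of these 102 genes edgeR called 0 at the FDR of 0.05. At an unadjusted p under 0.05 there were 5 higher and 7 lower, where 4.43% and 5.27% of all tested genes were. By list, these were 2 higher in cytochrome b5 and NADPH oxidase, 1 higher in lipoxygenases and 2 higher and 1 lower in coenzyme Q. Prostaglandin synthesis and breakdown had 2 lower. The lysophospholipid acyltransferases, monounsaturated fatty acid desaturases, GPX4 arm and other lipid peroxide suppressors had 1 lower each. DESeq2 called 4 of the 102 (Coq2 higher, Lpcat4, Ptgr1 and Scd3 lower), where it called 1.89% of all genes (0.948% higher and 0.94% lower). Limma voom called 19 of the 102, 5 higher and 14 lower. That is a larger share than the 9.62% it called over all genes (2.68% higher and 6.94% lower). The median log2 fold change of the 102 genes was 0.07.

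Around Acsl4 and Lpcat3, 5 other fatty acid activating enzymes were tested, 2 higher and 3 lower with a median of -0.50, and 0 were under an unadjusted p of 0.05. Slc27a4, a fatty acid transporter with synthetase activity, differed by -0.81 on the log2 scale (edgeR adjusted p 0.574) and Acsbg1, another acyl-CoA synthetase, by -0.87 (edgeR adjusted p 0.675). Of 8 lysophospholipid acyltransferases 5 were higher and 3 lower, with a median of 0.24. Lpcat4, which acylates lysophosphatidylcholine and lysophosphatidylethanolamine, was at 165 to 216 normalised CPM with corn oil and 53.6 to 106 with tamoxifen, without overlap. Its log2 fold change was -1.29 (SE 0.23, edgeR adjusted p 0.0921), with the smallest p of any gene of these lists. Mboat1, an acyltransferase that favours monounsaturated chains, had a log2 fold change of 0.42 (edgeR adjusted p 0.707).

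All 4 tested genes of polyunsaturated chain elongation and desaturation were lower, with a median of -0.24. Fads2, the delta-6 desaturase, was at -2.65 (edgeR adjusted p 0.572) and Elovl5, an elongase, at -0.22 (edgeR adjusted p 0.893) on the log2 scale. Fads2 ranged from 0.0610 to 63.0 normalised CPM in corn oil libraries alone. Ether phospholipid synthesis had 2 of 7 genes higher and a median of -0.26, with Tmem189, the plasmanylethanolamine desaturase, at -0.50 and Pex7, a peroxisomal import receptor, at 0.31 on the log2 scale (edgeR adjusted p 0.746 and 0.780).

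Of the lipoxygenases and their partner 5 were tested, 4 of them higher, with a median of 0.61. Pebp1, the scaffold that directs lipoxygenase to phospholipid, was at 61.8 to 171 normalised CPM with corn oil and 191 to 345 with tamoxifen, without overlap, a log2 fold change of 0.98 ± 0.31 (SE; by edgeR, adjusted p 0.308). Alox5ap, the activating protein of 5-lipoxygenase and mainly a leukocyte gene, was at 0.60 (edgeR adjusted p 0.902), and its highest library, tamoxifen replicate 4 at 28.3 normalised CPM, also had the highest summed macrophage markers (2194). The part of macrophage RNA in it was not tested.

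Beside Por, 4 of 6 cytochrome b5 and NADPH oxidase genes were higher with a median of 0.47. Of these, 2 were under an unadjusted p of 0.05 in edgeR, where 4.43% of all tested genes were under it and higher. They were Cyb5r3 and Nox4, the latter near the floor at 0 to 0.242 normalised CPM with corn oil and 0 to 5.21 with tamoxifen. Cyb5r3, a reductase that passes NADH electrons to cytochrome b5, was at 282 to 485 normalised CPM with corn oil and 490 to 776 with tamoxifen, without overlap, a log2 fold change of 0.57 ± 0.23 (SE; by edgeR, adjusted p 0.440). Cyba, a subunit of the NADPH oxidase, was at -0.37 (edgeR adjusted p 0.771). Around Sat1, 4 of 8 polyamine genes were higher and the median was -0.06, with Odc1, the first enzyme of polyamine synthesis, at 0.64 and Srm, spermidine synthase, at 0.95 (edgeR adjusted p 0.547 and 0.632). Of the 5 channels and regulators listed beside Vdac2, 2 were higher and the median was -0.16.

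Around Ptgs2, 4 of 10 genes of prostaglandin synthesis and breakdown were higher and 6 lower, with a median of -0.49. At an unadjusted p under 0.05 in edgeR 2 were lower, where 5.27% of all tested genes were. Ptgr1, a reductase that inactivates prostaglandins and leukotrienes, was at 167 to 397 normalised CPM with corn oil and 13.4 to 108 with tamoxifen, without overlap, a log2 fold change of -2.58 ± 0.64 (SE; by edgeR, adjusted p 0.187). Ptgs1, the constitutive cyclooxygenase, averaged 91.3 ± 33.3 normalised CPM in the vehicle group (SD, n = 4) and 47.2 ± 14.3 after tamoxifen (SD, n = 6), and the log2 fold change was -0.95 (SE 0.32, edgeR adjusted p 0.327).

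On the suppressor side, the coenzyme Q pathway that supplies the substrate of AIFM2 and DHODH had 7 of 14 genes higher and a median of 0.10. Coq2, which joins the prenyl tail to the ring, was at 25.6 to 39.3 normalised CPM with corn oil and 44.7 to 86.6 with tamoxifen, without overlap, a log2 fold change of 1.10 ± 0.28 (SE; by edgeR, adjusted p 0.202). Coq7, a hydroxylase later in the pathway, had a log2 fold change of -0.90 ± 0.31 (SE; by edgeR, adjusted p 0.342). Of the other quinone reductases 2 of 3 were higher, with Vkorc1l1 at 0.37 and Vkorc1 at 0.19 (edgeR adjusted p 0.926 and 0.932).

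Tetrahydrobiopterin synthesis and recycling, around Gch1, had 5 of 7 genes higher and a median of 0.07, with the recycling enzyme Pcbd2 at 0.65 (edgeR adjusted p 0.695). All 4 pyrimidine synthesis genes around Dhodh were higher with a median of 0.37, with the CTP synthases Ctps at 0.55 and Ctps2 at 0.49 (edgeR adjusted p 0.663 and 0.808). Of the 3 tested stearoyl-CoA desaturases, which make the monounsaturated chains that ACSL3 activates, 1 was higher and the median was -0.0086. Scd3 was at -4.27 (SE 1.39, edgeR adjusted p 0.318) and Scd1 at 0.81 (edgeR adjusted p 0.921). Scd3 was low and uneven, at 9.60, 0.0305, 3.10 and 50.5 normalised CPM in corn oil replicates 1 to 4. The summed level of the 4 desaturases in the count table overlapped, at 81.8 to 501 normalised CPM with corn oil and 186 to 442 with tamoxifen. Other lipid peroxide suppressors had 4 of 6 genes higher, with Prdx6, a peroxidase that reduces phospholipid hydroperoxides, at -0.49 (SE 0.22, edgeR adjusted p 0.500) and Cisd2, an iron-sulfur protein, at -0.35 (edgeR adjusted p 0.725).

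The GPX4 arm had 4 of 7 genes higher and a median of 0.03. Gpx4 averaged 504 ± 153 normalised CPM in the vehicle group (SD, n = 4) and 636 ± 219 after tamoxifen (SD, n = 6), and the log2 fold change was 0.34 (edgeR adjusted p 0.788). Slc7a11 was at -1.41 (SE 0.44, edgeR adjusted p 0.311) and Gclc, the catalytic subunit that makes the glutathione precursor, at 0.61 (edgeR adjusted p 0.652).

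**Figure D5:**
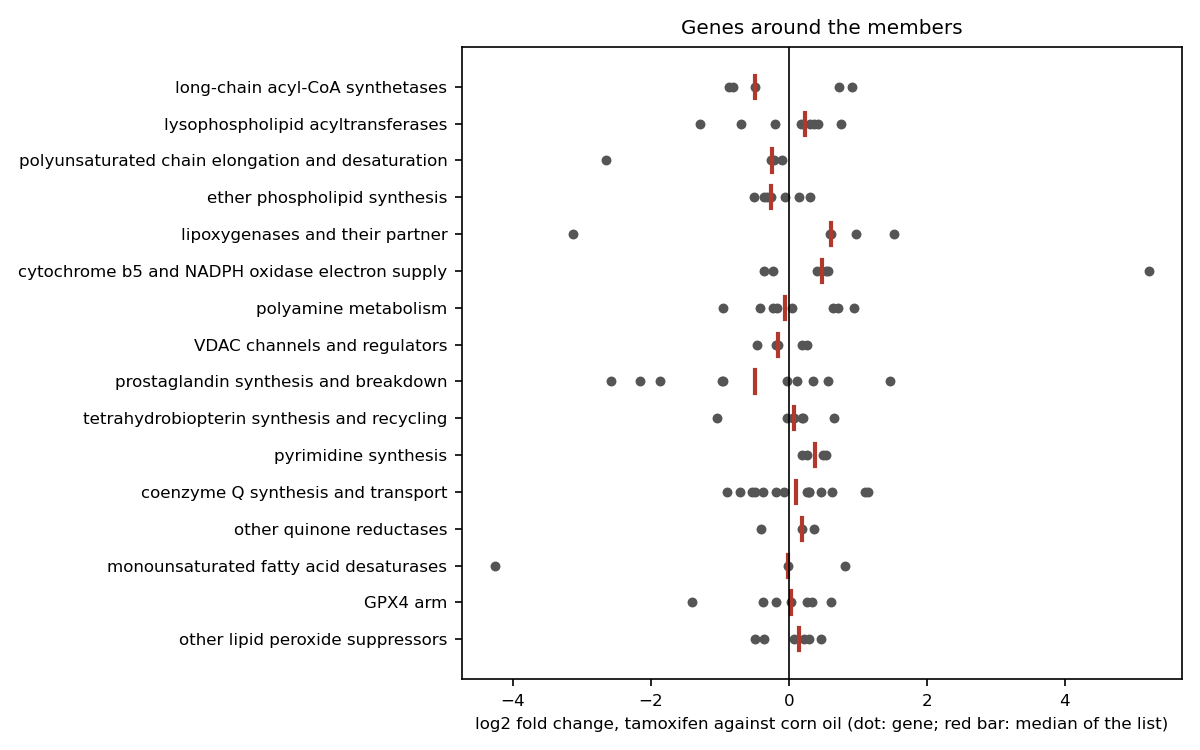
Log2 fold change, tamoxifen against corn oil, of each tested gene in the 16 lists, 1 dot per gene and a red bar at the median of each list. List medians lie between -0.50 and 0.61, and dots lie on both sides of 0 in every list except polyunsaturated chain elongation and desaturation (all lower) and pyrimidine synthesis (all higher).

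Dhodh and Ptgs2 varied most over the 10 libraries, with SDs of log2 CPM of 2.33 and 2.12. Among 8764 genes whose mean log2 CPM was 3 or more, the centred profiles closest to Dhodh were those of Srfbp1, St3gal1 and Hsdl1, with root mean square differences of 0.47, 0.51 and 0.53 on the log2 scale over 10 libraries. The profiles closest to Ptgs2 were those of Vcan, Upp1 and Eif4e3, at 1.22, 1.29 and 1.30. Ptgs2 itself had a mean log2 CPM of 0.71, below the level of the genes searched, and Dhodh one of 4.46. The differences of the 2 genes therefore cannot be compared. Libraries share depth and the likeness of tamoxifen replicates 1 to 3, and these differences are a description only.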

How the data were processed

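The deposited table holds raw counts, 1 row per symbol and 1 column per library (10). The submitters' processing notes name STAR 2.5.2b, featureCounts 1.5.0-p3, bcl2fastq 2.17 and the mm10 build. The labels' protocols name a Qiagen micro column for RNA, SMART-seq v4 amplification and Nextera XT libraries, which do not mark strand, so that reads of overlapping genes cannot be told apart. The annotation, strand setting and treatment of multi-mapped reads were not given in the sources used.

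Counts were tested with edgeR 4.0.16 in R 4.3.3 for tamoxifen against corn oil, without covariates, after filterByExpr (13006 of 15624 genes) and TMM scaling, by the quasi-likelihood F test with Benjamini-Hochberg adjustment over all tested genes at an FDR of 0.05. The SE is the absolute log2 fold change over the square root of F, and 95% intervals use the test's degrees of freedom. Log2 CPM used a prior count of 2. Positions and exon lengths are those of GENCODE M21 (GRCm38, the assembly of mm10). Alternatives were RLE factors, an unfiltered table, a floor of 5 CPM in 4 libraries, DESeq2 1.42.0, limma 3.58.1 voom with quality weights, sex, the similar trio as 1 sample or left out, tamoxifen replicates 4 and 6 left out, and each library left out.

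On simulated data for this comparison (12647 genes in the step, 50 changed at each fold) the test recovered 4% of 2-fold, 36% of 4-fold, 58% of 8-fold and 76% of 16-fold changes, with 2 false calls.

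All 10 members were named. Of each pathway list, genes past the FDR were named, or failing any the 2 with the lowest p whose mean log2 CPM was 0 or more. Up to 3 genes of closest profile were named for the 2 most variable members. The members, lists and alternatives were chosen with earlier results of these data known. Gpx4, Trp53, Nox4, Pex10, Pdss1, Coq10a, the sister channels and genes sharing exons or neighbouring Dhodh were added beside them. A gene that this rule names is not reported here.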

Additional observations from a re-analysis of the deposited data

Results flagged for a closer look

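Dixon's ratio was computed for both groups of 41 named genes, 82 in all, and 6 held a library apart from the others, where chance gives about 1 in 20. None of the 6 concerned the 10 genes themselves. Tamoxifen replicate 4 was highest for Alox5ap (28.3 normalised CPM, others 1.31 to 8.50) and Vkorc1l1 (13.6, others 3.88 to 6.37). Tamoxifen replicate 6 was highest for Cyb5r3 (776 normalised CPM, others 490 to 569) and Cyba (1113, others 457 to 635). Tamoxifen replicate 5 was lowest for Odc1 (83.2 normalised CPM, others 139 to 150) and highest for Scd3 (2.64, others 0.0628 to 0.947).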

How the results depend on the processing

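Of 19 alternatives, none called any of the 10 genes except limma voom (Acsl3), and Ptgs2 was not tested with a filter of 5 CPM in 4 libraries. Direction held in all alternatives run for Lpcat3, Por, Sat1, Vdac2, Aifm2, Gch1 and Acsl3. It reversed for Acsl4 without corn oil replicate 1 (-0.0096) and without tamoxifen replicates 4 and 6 (-0.0683), for Dhodh without tamoxifen replicates 1 to 3 (-1.10) and for Ptgs2 without corn oil replicate 4 (0.50), and the cause was not tested. With 1 library left out, Acsl4 ran from -0.0096 to 0.51 (without corn oil replicate 2) and Ptgs2 from -1.45 (without tamoxifen replicate 5) to 0.50. Over all genes the number past the FDR was 5, against 243 in DESeq2, 1251 in limma voom, 77 without tamoxifen replicates 4 and 6, and 0 with sex as a covariate, with tamoxifen replicates 1 to 3 as 1 sample and without these 3. With 1 library left out it ran from 0 (without corn oil replicate 1 or 3, or tamoxifen replicate 1, 2 or 3) to 11 (without tamoxifen replicate 4), with 2 and 1 when corn oil replicate 2 or 4 was dropped and 9 without tamoxifen replicate 5. Low counts limit Ptgs2 most, with 10 or fewer reads in 5 of 10 libraries. Corn oil replicate 2, the deepest library, held 5 reads, tamoxifen replicate 6, the shallowest, 8, and tamoxifen replicate 1, among the shallowest, 69. The next deepest libraries, corn oil replicates 4 and 3 and tamoxifen replicate 5, held 301, 100 and 175. The part of depth in these counts was not tested. No paired analysis was possible because the labels give no replicate numbers that the groups share.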
